A study of Mus musculus with 6 samples.

Results

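Keratin genes and the genes of keratin-associated proteins were followed in the promoter-anchored contacts of mouse embryonic stem cells (mESCs). A member was any gene named with a promoter in either HiCap replicate whose symbol starts with Krt and a number, or with Krtap. A non-member is a gene whose symbol does not match, and what such genes encode was not looked at. Of the 21202 listed genes 85 were members. They were 51 keratin genes and 34 genes of keratin-associated proteins, of which 42 lay on chromosome 11, 24 on chromosome 15, 13 on chromosome 16 and 6 on chromosomes 7 and 10. HiCap couples Hi-C, cut with the frequent cutter MboI, to capture of promoter fragments, and it was run on 2 biological replicates. Hi-C without capture was run on 2 replicates whose pairs were deposited as 1 list, and the 2 Capture-C samples were not analysed here. All cells were of the R1 line, grown undifferentiated on gelatin with serum and LIF, with no treatment or genetic change, so the replicates cover 1 line only. The lists name positions and hold no expression, so keratin levels in these cells and the cell type on the label could not be checked here.

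Keratins are the intermediate filament proteins of epithelial cells. A type I and a type II keratin pair to build a filament, and in the mouse most type I genes sit in a cluster on chromosome 11 and the type II genes in a cluster on chromosome 15, where the type I gene Krt18 lies beside its type II partner Krt8. Keratin-associated proteins surround and cross-link the hair keratins in the hair shaft, and their genes lie between the type I keratin genes and in clusters of their own. Krt8, Krt18 and Krt19 belong to simple epithelia, including the first epithelium of the embryo, whereas most other members are genes of the epidermis, other stratified epithelia or the hair follicle.

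A pair joins a promoter fragment to a distal region, which is usually a single MboI fragment, and a called contact is a pair with identical fragments in both HiCap lists. Replicate 1 listed 1222 pairs of 82 members and replicate 2 listed 2144 pairs of 70 members. Of these pairs 229 were called. They made up 18.7% of what replicate 1 listed for members, beside 19.0% for all promoters, and 10.7% of what replicate 2 listed for members, beside 17.1%. A called contact was held by 47 of the 85 members (55.3%, exact 95% interval 44.1 to 66.1%), beside 60.7% of all listed genes. The share of members thus lay near that of all genes. Read numbers are not in the lists, so the depth behind each pair is unknown, and the intervals cover counting error over genes or pairs only. Members of a cluster are neighbours and are not independent.

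The clusters differed in their shares, within wide intervals. On chromosome 11, 28 of 42 members had a called contact (66.7%, 50.5 to 80.4%), against 71.7% of the other genes of that chromosome. On chromosome 15 the count was 13 of 24 members (54.2%, 32.8 to 74.4%), against 73.3% of the other genes there. On chromosome 16, which held only keratin-associated members, it was 4 of 13 (30.8%, 9.09 to 61.4%), against 68% of the other genes (64.3 to 71.5%). The chromosome 16 interval lay below that of its neighbours, whereas the intervals of the other clusters overlapped those of the genes around them. A call needs both lists, and replicate 2 named only 7 of the 13 members of chromosome 16, against 609 of the 665 other genes there. The part of this listing in the low share was not tested. The remaining 6 members, on chromosomes 7 and 10, included 2 with a call.

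**Figure D1:**
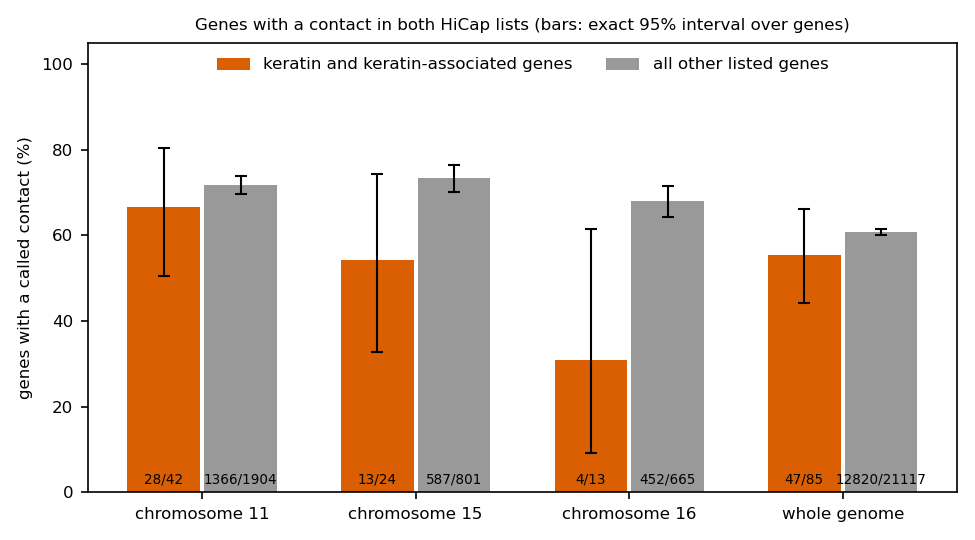
Share of genes with a contact in both HiCap lists (y axis, percent of listed genes) for keratin and keratin-associated genes (left bars) and all other listed genes (right bars) of each chromosome and of the whole genome. Error bars are exact 95% intervals over genes, and the counts stand at the foot of each bar. The chromosome 16 members reach 30.8% beside 68% of the other genes of that chromosome, but replicate 2 named only 7 of these 13 members.

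By type, 34 of 51 keratins (66.7%, 52.1 to 79.2%) and 13 of 34 keratin-associated genes (38.2%, 22.2 to 56.4%) had a called contact. Among keratins the count was 5 of 6 simple epithelial genes, 16 of 21 epidermal and other stratified genes, 6 of 7 inner root sheath genes and 5 of 14 hair keratins (35.7%, 12.8 to 64.9%). Of the 3 other keratin symbols, Krt222 and Krt42 were called and Krt72-ps was not. The intervals of keratins and keratin-associated genes overlapped.

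Many keratin-associated genes are near copies of each other, and reads with several positions were discarded by the authors. In the promoter fragments of keratins a median of 100% of the 31-base words occurred once in the genome, against 78.7% in those of keratin-associated genes. Fewer than 50% of these words were unique for 6 members, all keratin-associated, and of these only Krtap5-5 (48.4%) was called. The value was 59.1% for Krt6a, 69.2% for Krt6b, 68.6% for Krt33b and 76.2% for Krt31, none of which had a call. Among keratins the median was 100%, the highest possible value, both with and without a call. The lowest value was 83.2% for keratins with a call and 59.1% for those without. For keratin-associated genes the median was 71.9% with a call and 83.5% without, and the lowest value 48.4 and 35.1%. The part of sequence uniqueness in the counts was not tested.

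Chromosome 11 carried most of the called contacts, 173 of 229. Its members formed a first keratin block (Krt222 to Krt40, 305 kb), a block of keratin-associated genes (Krtap3-3 to Krtap17-1, 443 kb) and a second keratin block (Krt33a to Krt42, 257 kb). The first block had calls for 11 of 12 genes, the keratin-associated block for 7 of 15 and the second block for 10 of 15. The second block held 109 of the called contacts, the first 52 and the keratin-associated block 12.

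Most called contacts of chromosome 11 ended in the block of their own promoter. All 52 contacts of the first block, 92 of the 109 of the second block and 11 of the 12 of the keratin-associated block ended in the block of their own promoter. The exception among keratin-associated promoters ended in the first keratin block, and the other 17 contacts of the second block ended between or outside the blocks. No called contact joined the first to the second keratin block. Each list did name such pairs, with 13 in replicate 1, 101 in replicate 2 and 1 in Hi-C. Ends between the outermost member promoters made up 91.3% of calls on chromosome 11, 91.2% on chromosome 15 and 100% on chromosome 16. These counts cannot tell block boundaries from short distance. The chromosome 11 blocks span 257 to 443 kb, and the called contacts of chromosome 11 had a median of 6.88 kb. No such share was computed for other genes.

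**Figure D2:**
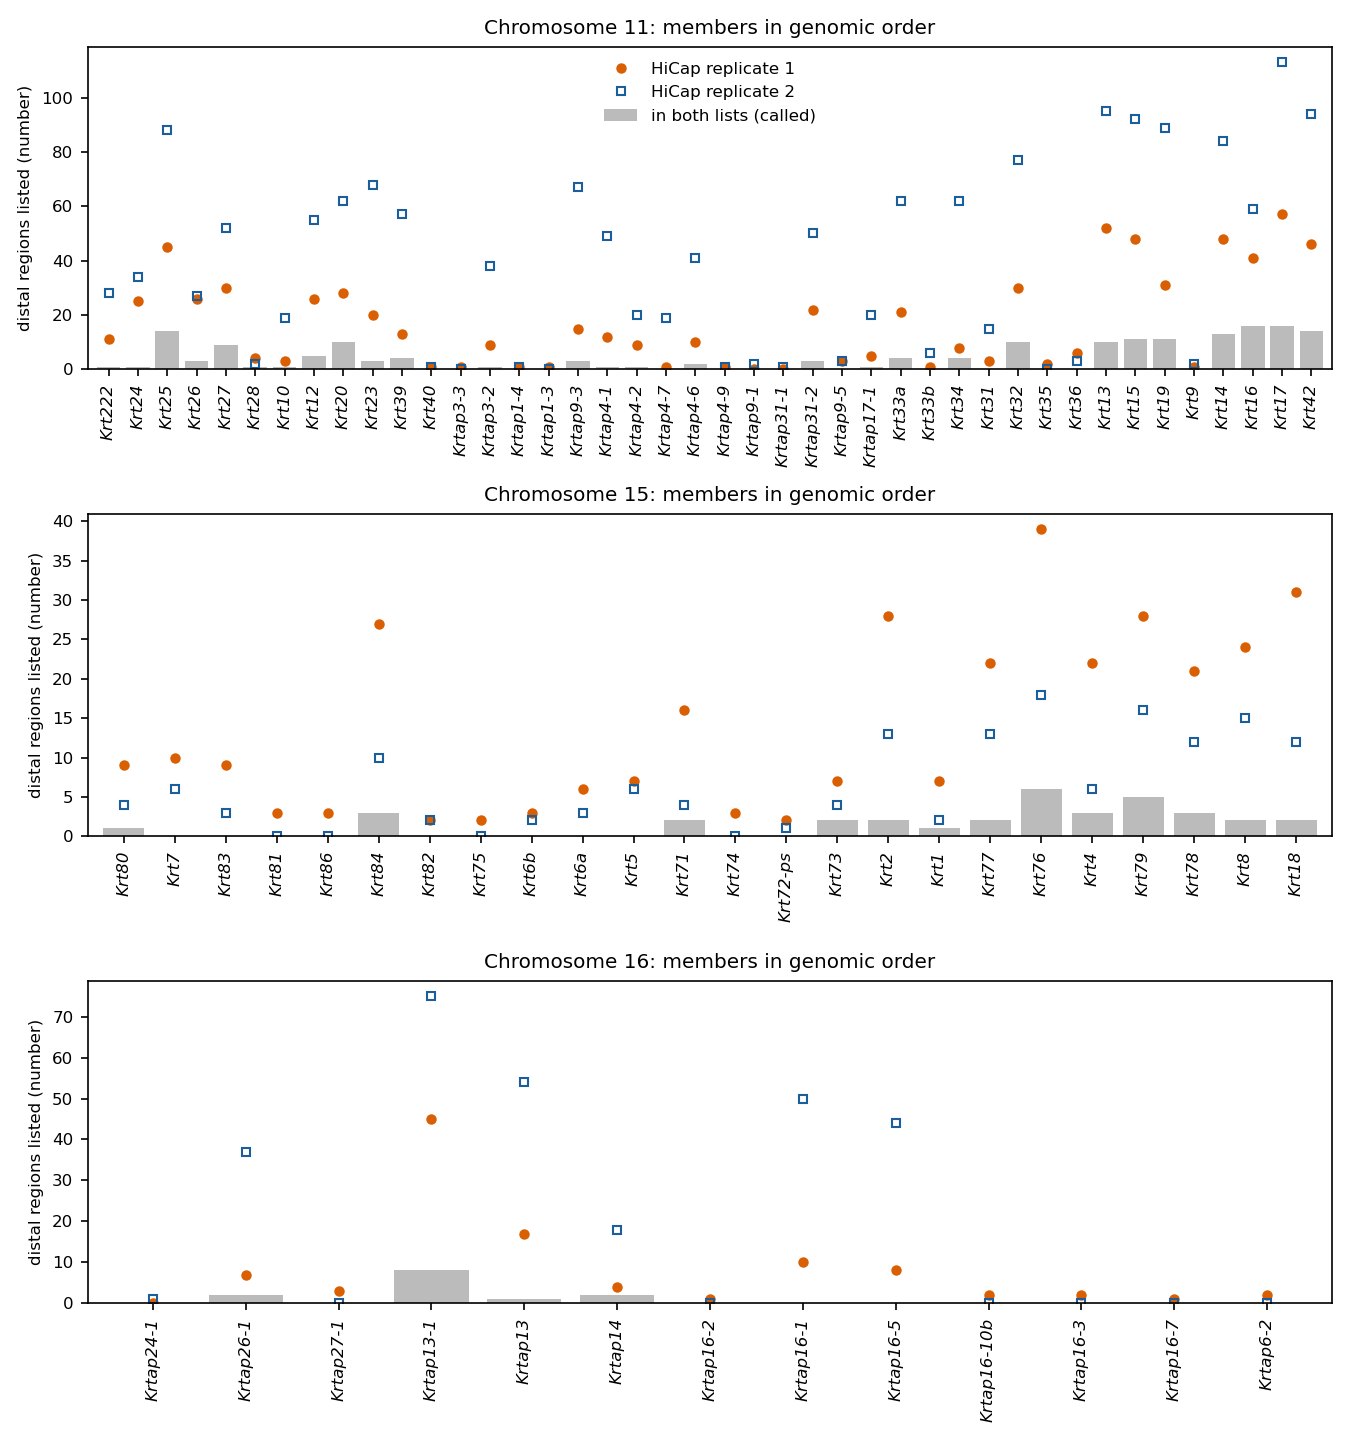
Number of distal regions listed for each member (y axis) in replicate 1 (filled circles), replicate 2 (open squares) and in both lists (grey bars), with genes in genomic order along chromosomes 11, 15 and 16. On chromosome 11 replicate 2 lists more regions than replicate 1 for most genes, up to 113 for Krt17, and on chromosome 15 replicate 1 lists as many or more for every gene.

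Genes with many called regions lay side by side at the end of the second block. Krt16, induced in wounded and hyperproliferative epidermis, had 41 regions in replicate 1, 59 in replicate 2 and 16 in both. Krt17, its neighbour with a similar role in wounds and hair follicles, had 57, 113 and 16. Krt42, which lies beside Krt17, had 46, 94 and 14. Krt14, the type I keratin of basal epidermal cells, had 48, 84 and 13. These genes were high in both replicates, and their calls lay close to the promoter, at a median of 8.35 kb for Krt16, 8.15 kb for Krt17, 14.4 kb for Krt42 and 9.32 kb for Krt14.

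The next genes of this block are keratins of stratified and simple epithelia and of hair. Krt15, of basal and hair follicle stem cells, had 48 regions in replicate 1, 92 in replicate 2 and 11 in both. Krt13, of the lining of mouth and oesophagus, had 52, 95 and 10. Krt32, a hair cuticle keratin, had 30, 77 and 10. Hair keratins next to Krt32 were at the other end of the range, with no call for Krt31 (3 and 15 regions in replicates 1 and 2), Krt33b (1 and 6), Krt35 (2 and 0) or Krt36 (6 and 3), whereas Krt33a and Krt34 had 4 called regions each. Krt9, of the skin of palms and soles, lies between Krt19 and Krt14, each with over 10 calls, and was listed with 1 and 2 regions and none in both.

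In the first block the highest count was that of Krt25, an inner root sheath keratin, which had 45 regions in replicate 1, 88 in replicate 2 and 14 in both, as many as Krt42. Of the other inner root sheath keratins there, Krt27 had 30, 52 and 9, whereas Krt26 had 26, 27 and 3. Krt20, a keratin of gut epithelium, had 28, 62 and 10, and Krt12, the keratin of the cornea, had 26, 55 and 5. Krt23 and Krt39 had 3 and 4 called regions. Krt10, the main type I keratin of the upper epidermis, had only 3 regions in replicate 1 and 19 in replicate 2, with 1 in both. Krt28 had 4 and 2, with 1 in both.

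The simple epithelial keratins of chromosome 11, Krt19, Krt20 and Krt23, had 11, 10 and 3 called regions, and those of chromosome 15, Krt8, Krt18 and Krt7, had 2, 2 and 0. Krt19 had 31 regions in replicate 1, 89 in replicate 2 and 11 called, from 4.67 to 20 kb away, of which 6 lay downstream of its promoter and 5 upstream. Krt8 had 24 and 15 regions with 2 called, and Krt18 had 31 and 12 with 2 called. Krt7 had 10 and 6 regions and no call. Krt8 was called with a region 6.74 kb upstream and another 114 kb upstream that overlaps an exon of Spryd3. Krt18 was called with regions at 44.2 kb upstream and 139 kb downstream, both intergenic. Krt8 and Krt18 are neighbours and partners in the filament, yet they shared no called region. The region in Spryd3 was called also for Eif4b, Soat2, Spryd3, Tenc1 and Zfp740, and the region of Krt18 at 139 kb for 11 non-member genes.

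On chromosome 15 the counts were smaller. Krt76, a keratin of the palate and oral lining, had 39 regions in replicate 1, 18 in replicate 2 and 6 called. Krt79, of the sebaceous duct, had 28, 16 and 5. Krt5, the basal partner of Krt14, had 7 and 6 regions and none in both, where Krt14 had 13. Krt1, the partner of Krt10, had 7 and 2 regions with 1 called. Krt83 had 9 and 3 regions and no call. Every gene of this cluster with at least 20 regions in replicate 1 had a call.

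Outside these clusters of keratins, Krtap13-1 of chromosome 16 had 45 regions in replicate 1, 75 in replicate 2 and 8 in both, all intergenic, from 3.7 to 89.9 kb away. Krtap5-5 of chromosome 7 had 50, 30 and 8, from 2.57 to 31.1 kb away. Krtap16-1 and Krtap16-5 of chromosome 16 were listed with 10 and 8 regions in replicate 1 and with 50 and 44 in replicate 2, and neither had a call. Krtap4-7 of chromosome 11 was listed with 1 and 19 regions and had none. In replicate 2 the listed regions of Krtap16-1 lay at a median of 481 kb and those of Krtap16-5 at 949 kb, against 8.17 and 22.6 kb in replicate 1.

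The replicates differed in number and distance of member pairs, and the direction depended on the chromosome. Replicate 2 listed 2.31 times as many member pairs as replicate 1 on chromosome 11, 0.459 times as many on chromosome 15 and 2.74 times as many on chromosome 16. Pairs of the other genes moved the same way, with ratios of 1.72, 0.844 and 1.9 on these chromosomes, and over all chromosomes the ratio ran between 0.247 and 3.85. Median distances of member pairs were 17.3 kb in replicate 1 and 156 kb in replicate 2, beside 19.8 and 101 kb for all genes. Pairs over 1 Mb made up 1.39% of the member pairs in replicate 1 and 23.3% in replicate 2, beside 0.371% and 19.4% for all genes, and no member pair over 1 Mb was called. The part of these list differences in the number of calls was not tested.

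Called contacts of members were short. Their median distance was 7.23 kb (quartiles 4.5 and 16.1 kb), against 10.3 kb (5.12 and 25.8 kb) for all listed genes. The medians were 6.88 kb on chromosome 11, 8.43 kb on chromosome 15 and 9.38 kb on chromosome 16, and 7.64 kb for the members on other chromosomes. Chromosome 15 had the widest spread, with an upper quartile of 74 kb, against 14.5 kb on chromosome 11 and 13.5 kb on chromosome 16. Contacts of 100 kb to 1 Mb made up 23.5% of the calls on chromosome 15, 1.16% on chromosome 11 and 6.25% over all genes. They numbered 8 of 34 on chromosome 15 and 2 of 173 on chromosome 11. On chromosome 15 all but that of Krt71 ended in regions that were called also for non-member genes. Those on chromosome 11 ended in a region on an exon of Krt28.

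The 5 longest called contacts were all on chromosome 15, and the next was that of Krt39 on chromosome 11, at 151 kb. Krt84, a hair and tongue keratin, was called with a region 451 kb away. Krt71 of the inner root sheath was called with a region 349 kb away. The region of Krt77, 291 kb away, overlaps an exon of Soat2 and was called also for 9 non-member genes. Krt73, also of the inner root sheath, had only 2 calls, at 182 and 175 kb, although it was listed with 7 and 4 regions in all. The shortest call, at 1.34 kb, was that of Krt80. At 5 to 10 kb replicate 2 held 45% of the replicate 1 member pairs of chromosome 11 and 8.2% of those of chromosome 15. The share for all genes was 27.1%. At 1 to 5 kb these shares were 39.5 and 23.2%, beside 31.6%. On chromosome 15 replicate 2 listed fewer member pairs than replicate 1, 152 against 331. As shares of replicate 2 pairs, the values for chromosomes 11 and 15 at 5 to 10 kb were 47.5 and 38.5%, beside 50.1%. At 1 to 5 kb they were 50.5 and 46.4%. Taken as a share of replicate 2 pairs, 48.9% of the member pairs at 1 to 5 kb were in replicate 1, beside 58% for all genes. At 25 to 100 kb replicate 2 held 8.77% of the replicate 1 pairs of all members, beside 13.1% for all genes.

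**Figure D3:**
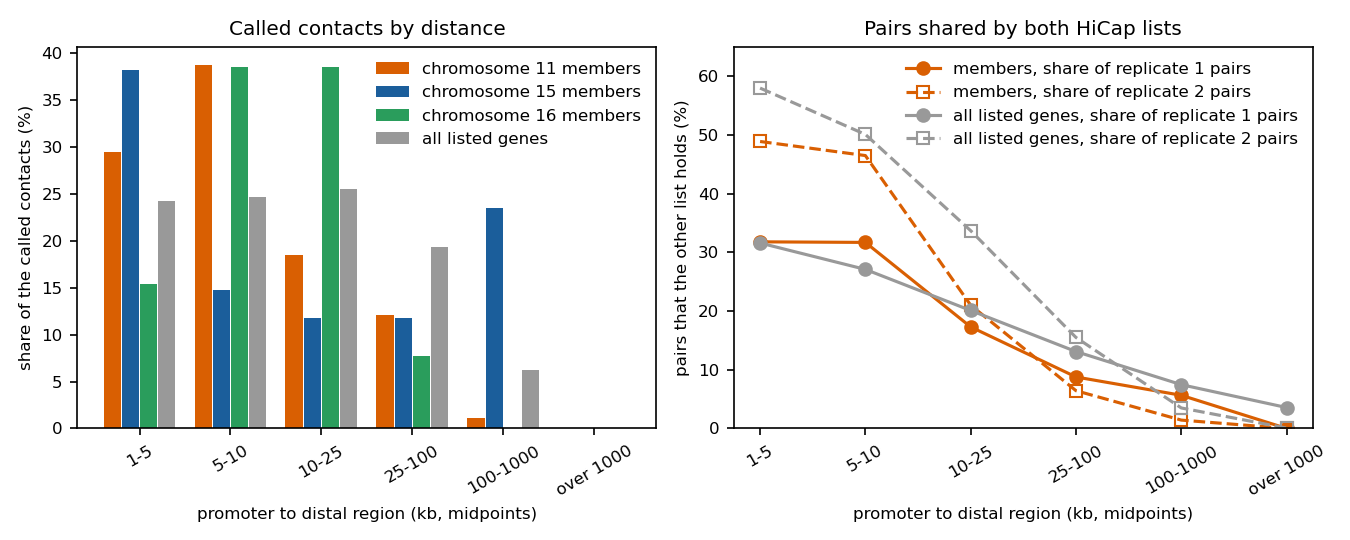
Left, share of the called contacts (y axis, percent) in each range of distance (x axis, kb) for the members of chromosomes 11, 15 and 16 and for all listed genes. Right, share of the pairs of each HiCap list that the other list holds, for members and all listed genes; member values reach 48.9% of replicate 2 pairs at 1 to 5 kb, and 23.5% of the chromosome 15 calls lie at 100 to 1000 kb.

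By position, 150 of the 229 called contacts (65.5%) ended in intergenic sequence. The gene of the promoter itself held 34 (18 on an exon and 16 in an intron), another member gene 30 and a non-member gene 15. Upstream and downstream ends were equal in number, 113 each, and 3 contacts belonged to genes without an annotated strand. Called regions had a median length of 514 bp, beside 568 bp for all promoters.

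The share of member regions called for several genes lay near that of all genes. The 229 contacts ended in 194 regions. Of these, 22 (11.3%) were called for at least 2 member genes and 6 for a member and a non-member gene. In all, 12.9% of the member regions were called for at least 2 genes of any kind, beside 13.9% of the regions of all genes. Of the 22 regions 19 lay on chromosome 11 and 3 on chromosome 15, and chromosome 16 had none.

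The region with the most members overlapped an exon of Krt28, at chr11:99231412-99232448 of mm9. It was called for Krt10, Krt12, Krt20, Krt23, Krt25, Krt26, Krt27, Krt28 and Krt39, that is 9 of the 12 genes of the first block, at 4.55 to 151 kb and on both sides. It was called also for the non-members RP23-336D20.3 and RP23-336D20.8, which lie in the same block. Of the 3 block genes without this call, Krt24 and Krt222 had the pair in replicate 2 alone and Krt40 had it in neither list. Replicate 1 listed the region for 11 members and replicate 2 for 17, but no member beyond 151 kb had it in both. It was the sole called region of Krt10 and Krt28. Of all called regions 152 of 71923 (0.211%) were called for 11 or more genes, so such a number was rare but not particular to this place. The adjoining fragment, chr11:99231343-99231411, was called for Krt20 and Krt27.

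Chromosome 15 had a similar region between Krt78 and Krt8, in intergenic sequence at chr15:101806800-101807483. It was called for Krt1, Krt73, Krt76, Krt78 and Krt79, at 22.5 to 175 kb and all on the same side. Of all member promoters of the cluster only those of Krt8 and Krt18 lie on the other side. The region was called also for 6 non-member genes, 4732456N10Rik, Map3k12, Rarg, Soat2, Tenc1 and Zfp740, at 127 to 540 kb. Of these, 4732456N10Rik has its promoter within the keratin block. The replicates were unequal here. Replicate 1 listed the region for 19 of the 24 cluster members and for 25 other genes, a number that only 3 of 346447 regions of that list reached. Replicate 2 listed it for 5 members and 8 other genes, a number that 551 of 403175 regions of that list reached. Of the 71923 called regions 152 were called for at least as many genes as this region. Every member with the region in replicate 2 had it in replicate 1. It was the sole called region of Krt1.

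A second intergenic region 7.46 kb away, chr15:101814344-101814859, was called for Krt18, Krt73 and Krt84 and for Eif4b, Igfbp6, Nr4a1, Rarg, Tenc1 and Zfp740. Replicate 1 listed it for 10 members and replicate 2 for 5. Krt73 was the only member with both of these regions, and they were its only calls. Without the region in Krt28, the calls of chromosome 11 numbered 164 of 26 genes in place of 173 of 28, and without the first chromosome 15 region those of chromosome 15 numbered 29 of 12 genes in place of 34 of 13.

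**Figure D4:**
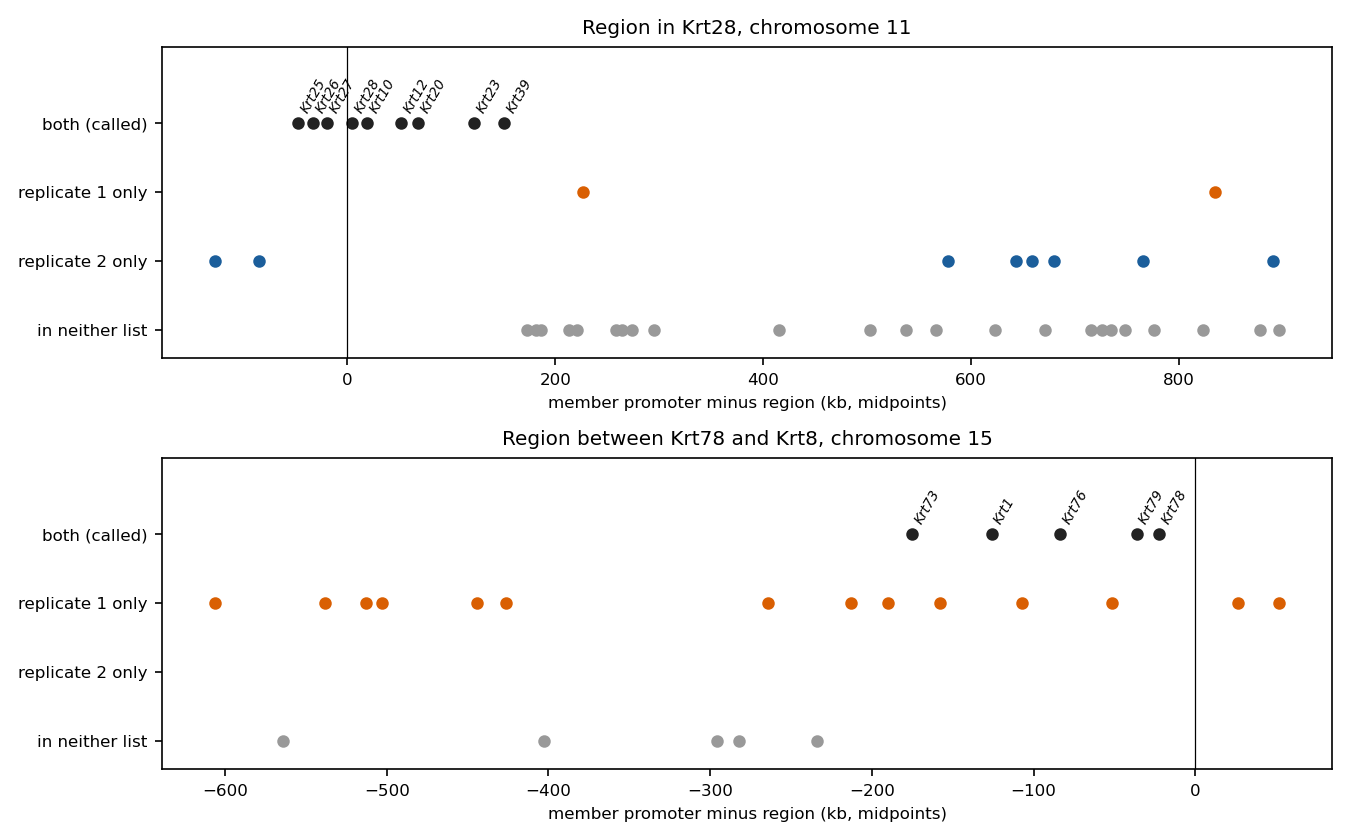
Distance of every member promoter of the chromosome from the region in Krt28 (top) and from the region between Krt78 and Krt8 (bottom) on the x axis (kb, promoter minus region), with the list that holds the pair on the y axis. The 9 called promoters of the top panel lie within 151 kb. The 5 of the bottom panel lie within 175 kb and on the same side of the region, as do all other members but Krt8 and Krt18. In the bottom panel 14 further promoters were in replicate 1 only.

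In the second block of chromosome 11 neighbours shared regions over short distances. Krt16, Krt17 and Krt42 shared an intergenic region at chr11:100093931-100094385, which lay 16.1, 28.2 and 37 kb from their promoters, and another between Krt16 and Krt17 at chr11:100114908-100116936, at 5.64, 6.46 and 15.2 kb. Krt16 and Krt17 also shared 4 regions that overlap exons of either gene, and each of them shared 1 more with Krt42. Krt15 shared 2 regions with Krt13 and 3 with Krt19, and Krt13 and Krt19 shared 1. Krt14 shared 1, with Krt17, at 12 kb from Krt14 and 41.6 kb from Krt17. No non-member gene had a called contact with any of these regions.

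**Figure D5:**
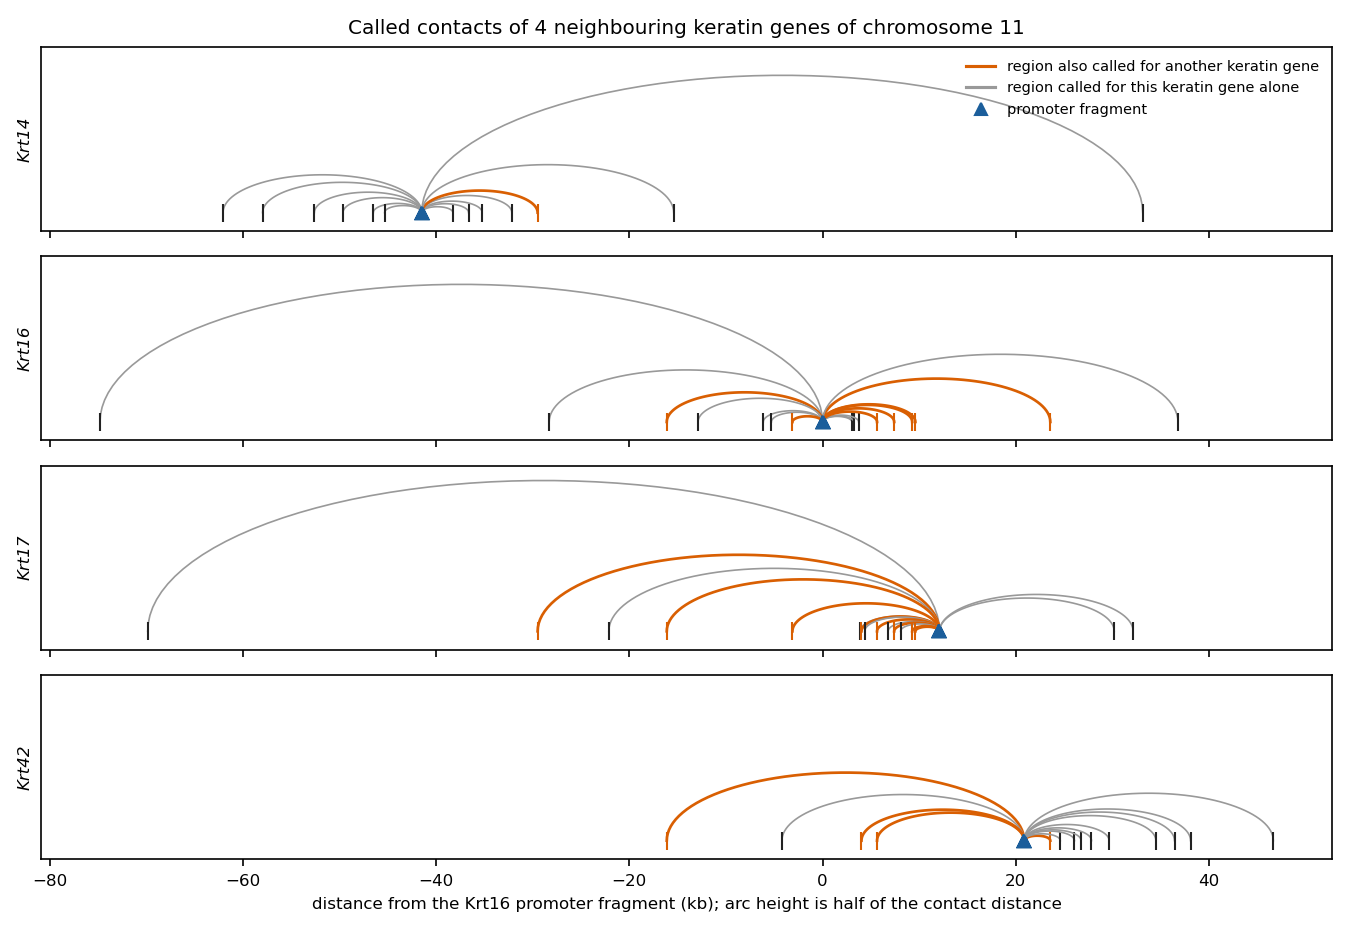
Called contacts of Krt14, Krt16, Krt17 and Krt42, drawn as arcs from the promoter fragment (triangle) to the distal region (tick) against distance from the Krt16 promoter (x axis, kb). Orange arcs end in regions that were also called for another keratin gene, among them the region 16.1 kb from Krt16 that Krt17 and Krt42 share.

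The sequences of these regions are shown because the shared contacts turn on them. Each is given from its first base, 5′ to 3′ on the plus strand of mm9, up to 300 bases, and capitals mark the MboI site GATC and matches, on either strand, to TGANTCA (the AP-1 motif) and GGGCGG (the SP and KLF motif), which do not overlap here. The windows are chr11:99231412-99231711 and the whole adjoining fragment chr11:99231343-99231411 for Krt28, chr15:101806800-101807099 and chr15:101814344-101814643 for chromosome 15, and chr11:100093931-100094230 and chr11:100114908-100115207 for Krt16, Krt17 and Krt42. The 2 last windows are whole fragments, chr11:100119782-100119993 on an exon of Krt17, shared by Krt16 and Krt17, and chr11:100002675-100002884 on an exon of Krt19, shared by Krt15 and Krt19.
Krt28 region: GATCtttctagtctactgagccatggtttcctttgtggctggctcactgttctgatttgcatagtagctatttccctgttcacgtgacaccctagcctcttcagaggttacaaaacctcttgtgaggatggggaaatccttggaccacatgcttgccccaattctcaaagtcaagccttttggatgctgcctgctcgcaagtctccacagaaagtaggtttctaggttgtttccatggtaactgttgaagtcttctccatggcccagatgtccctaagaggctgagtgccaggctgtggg
Krt28 adjoining fragment: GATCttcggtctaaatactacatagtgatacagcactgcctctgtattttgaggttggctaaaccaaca
Krt78 to Krt8 region: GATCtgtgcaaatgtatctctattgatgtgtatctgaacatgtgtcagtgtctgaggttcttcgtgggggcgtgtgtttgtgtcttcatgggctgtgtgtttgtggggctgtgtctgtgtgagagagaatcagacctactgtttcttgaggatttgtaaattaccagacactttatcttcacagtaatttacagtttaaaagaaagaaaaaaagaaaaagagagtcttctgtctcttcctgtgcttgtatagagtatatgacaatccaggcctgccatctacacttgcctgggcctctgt
Krt18, Krt73 and Krt84 region: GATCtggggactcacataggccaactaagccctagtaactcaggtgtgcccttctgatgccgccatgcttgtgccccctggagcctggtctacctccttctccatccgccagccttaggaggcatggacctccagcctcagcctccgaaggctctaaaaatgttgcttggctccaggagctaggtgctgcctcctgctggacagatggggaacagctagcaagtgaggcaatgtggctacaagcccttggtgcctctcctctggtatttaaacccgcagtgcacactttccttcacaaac
Krt16, Krt17 and Krt42 first region: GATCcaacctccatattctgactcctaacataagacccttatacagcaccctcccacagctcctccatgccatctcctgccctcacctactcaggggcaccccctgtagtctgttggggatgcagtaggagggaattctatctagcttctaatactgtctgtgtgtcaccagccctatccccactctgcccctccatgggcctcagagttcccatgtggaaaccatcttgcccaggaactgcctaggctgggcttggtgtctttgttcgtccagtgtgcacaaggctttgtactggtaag
Krt16, Krt17 and Krt42 second region: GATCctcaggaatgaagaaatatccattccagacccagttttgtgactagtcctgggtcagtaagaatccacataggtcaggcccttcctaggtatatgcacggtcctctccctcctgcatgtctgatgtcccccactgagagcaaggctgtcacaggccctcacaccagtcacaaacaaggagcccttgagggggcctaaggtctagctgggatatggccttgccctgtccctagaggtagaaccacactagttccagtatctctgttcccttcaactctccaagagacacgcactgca
Krt17 exon fragment: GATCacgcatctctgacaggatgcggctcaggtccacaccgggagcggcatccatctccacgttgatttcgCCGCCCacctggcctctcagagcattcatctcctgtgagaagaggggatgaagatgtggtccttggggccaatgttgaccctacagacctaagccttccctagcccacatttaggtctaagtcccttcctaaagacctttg
Krt19 exon fragment: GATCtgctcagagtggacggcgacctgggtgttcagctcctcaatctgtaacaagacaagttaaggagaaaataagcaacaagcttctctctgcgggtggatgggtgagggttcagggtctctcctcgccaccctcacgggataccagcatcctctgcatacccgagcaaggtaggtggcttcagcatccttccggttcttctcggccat

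Each of these regions, taken whole, holds a single GATC, at its start, and is thus a single MboI fragment. The only other capitals are those of a GGGCGG match, as CCGCCC, in the Krt17 exon fragment. Of all called regions cut to 212 bases, 3.80% hold GGGCGG and 6.11% hold TGANTCA, and of those cut to 300 bases 5.30% and 8.62%. Beyond the printed bases, the whole Krt28 region and the Krt18, Krt73 and Krt84 region hold 1 GGGCGG match each, and the second region of Krt16, Krt17 and Krt42 holds 1 of each motif. The 31-base words of the Krt28 region were unique in the genome at 99.1%, and those of both chromosome 15 regions at 100%.

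Hi-C, without capture, listed 225 pairs of the 85 members. Of the 229 called contacts 37 (16.2%, 11.6 to 21.6%) were Hi-C pairs with the same fragments, beside 12.5% of the called pairs of all promoters. The share was 19.1% on chromosome 11 (33 of 173, 13.5 to 25.7%), 2.94% on chromosome 15 (1 of 34, 0.0744 to 15.3%) and 7.69% on chromosome 16 (1 of 13, 0.195 to 36%), and the intervals overlapped. The other genes of these chromosomes had shares of 16.8, 9.64 and 9.13%. With a Hi-C region within 1 kb counted as a match, the number was 103 (45%), beside 35.1% for all promoters.

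Krt14 had the most such contacts, 5 of its 13, followed by Krt17 and Krt19 with 4 each and Krt16 and Krt42 with 3 each. They were mostly short. Of the 37, 20 lay within 5 kb and none at 100 kb or more, and the contact of Krt14 at 74.6 kb, which ends in Gm14206, was among them. The single Hi-C match of chromosome 15 was a contact of Krt2 at 3.53 kb. The region in Krt28 was a Hi-C partner of Krt28 alone among its 9 called members, and this was its nearest promoter, at 4.55 kb. Neither of the 2 chromosome 15 regions was a Hi-C partner of any gene. Over all genes the share of called pairs in Hi-C fell with distance. It was 20.7% at 1 to 5 kb, 9.61% at 10 to 25 kb, 4.78% at 25 to 100 kb and 2.48% at 100 kb to 1 Mb. Few matches would thus be found at the distances of most contacts of these regions. Krt8 and Krt7 had no Hi-C pair, while Krt18 had 6 and Krt19 had 10, of which none and 4 were called.

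Other gene groups were set beside the keratins by their counts alone. A called contact was held by 11 of 29 genes of the epidermal differentiation complex, whose proteins form the cornified envelope (37.9%, 20.7 to 57.7%), close to the share of keratin-associated genes. It was held by 6 of 8 genes of the desmosome and its plaque, to which keratin filaments attach (34.9 to 96.8%). Other intermediate filaments had it in 12 of 15 genes (51.9 to 95.7%), and a list of keratinocyte regulators together with Cdsn in 8 of 13 (31.6 to 86.1%). The intervals of the desmosome, filament and regulator lists include the 60.7% of all listed genes. Large gene clusters of sensory receptors had far lower shares, with 38 of 508 olfactory receptor genes (7.48%, 5.35 to 10.1%) and 7 of 114 vomeronasal receptor genes (6.14%, 2.5 to 12.2%). Their intervals lay below that of all keratins and keratin-associated genes. However, replicate 2 named only 181 of these olfactory and 27 of these vomeronasal genes, against 70 of the 85 members. Genes missing from 1 list cannot be called, so these shares are limited by listing.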

How the data were processed

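HiCap of R1 mESCs was deposited by the authors as interaction lists for 2 biological replicates and as a combined list, and Hi-C as 1 list of pooled replicates. The authors aligned read ends to mm9, discarded reads with several positions, duplicates and pairs under 1 kb apart, assigned ends to MboI fragments and, for HiCap, required both replicates to reach a minimum of reads. What they deposited are positions on mm9, not normalized and with no read numbers, so the depth of each pair is unknown here.

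Members were found by symbol, and a contact was called where both HiCap lists name the same gene, promoter fragment and distal region. All genes gave the background. The members and gene lists were chosen with earlier results of these data known, and no test was run. With more than 30 called members, those named are the 20 with the most called regions, the simple epithelial keratins, members without a call but with most listed regions, and members of shared, longest and Hi-C contacts. Other genes were named where they share or hold a region. A few further members and all counts by class were named after their values were seen. Distance was taken between midpoints. Shares carry exact Clopper-Pearson 95% intervals. Exons and strands came from GENCODE on mm9, without pseudogenes, and sequences and 31-base words from the mm9 genome. In RefSeq 80 of the 85 symbols were current and 5 were synonyms. Counting was tested on simulated lists with planted pairs, using Python 3.11.15, NumPy 2.4.6 and SciPy 1.17.1. Alternatives were each replicate alone, the combined list, other matching rules, pairs over 15 kb and other units.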

Additional observations from a re-analysis of the deposited data

Results flagged for a closer look

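Hi-C listed 4 pairs of 4 keratin-associated genes that neither HiCap list names, Krtap10-4 and Krtap12-1 of chromosome 10 and Krtap8-2 and Krtap15 of chromosome 16, with 1 pair each. They were singled out only because they lie in data outside the HiCap comparison. Their absence from the HiCap lists is how they were chosen, so no difference between the assays is read from them.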

How the results depend on the processing

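No paired analysis was possible because the results are counts from lists and come from no test. With each replicate list alone in place of both, 70 to 82 members had a contact, the contacts numbered 1222 to 2144, their median distance was 17.3 to 156 kb and the regions shared by keratin promoters numbered 204 to 311. The share of members with a contact was then 92.9 to 95.2% on chromosome 11, 83.3 to 100% on chromosome 15, 53.8 to 92.3% on chromosome 16 and 66.7 to 100% on other chromosomes. These lists hold all pairs of a replicate, so their numbers are larger by construction. Over 15 kb, 29 members (34.1%, beside 41.3% of all genes) had 61 called contacts with a median distance of 30.8 kb, of which 5 were Hi-C pairs. With distal regions within 1 kb counted as the same, 617 of the 1222 replicate 1 pairs matched a replicate 2 pair, and these belonged to 52 members. Over all promoters 240200 of 499746 replicate 1 pairs (48.1%) matched in this way. With Hi-C regions within 1 kb 103 called contacts matched. Keratin-associated genes alone had a share of 46.7% on chromosome 11. Among genes that both lists name, 70.1% of members and 74.0% of all genes were called. The combined list of the authors gave 229 contacts of 47 members and 22 shared regions. Removal of the 2 regions with most keratin genes, chosen after seeing the data, left 215 contacts of 44 members. Lack of read numbers limits every count: a pair missing from 1 list may lie just under its minimum.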

Other observations

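Some called contacts that end in the keratin blocks belonged to other genes, 24 of 182 on chromosome 11, 15 of 46 on chromosome 15 and 2 of 15 on chromosome 16. Into the chromosome 15 block, 11 of them came from 8 genes with promoters outside it, at a median of 224 kb, with 2 each for Rarg, Tenc1 and Zfp740. Into the chromosome 11 block there was 1, of Gast, the gastrin gene, at 134 kb, and into the chromosome 16 block none. The single lists named 39 such pairs in replicate 1 and 342 in replicate 2 on chromosome 11, 66 and 38 on chromosome 15, and 0 and 37 on chromosome 16. Within the chromosome 11 block, RP23-336D20.3 had 58 regions in replicate 1, 131 in replicate 2 and 21 in both, more than any member, and its promoter lies 16.7 kb from the region in Krt28. Of the 28 non-member genes with promoters in that block 3 had a called contact. In the chromosome 15 block 2 of 6 had one, and in the chromosome 16 block 1 of 2. Over all non-member genes of chromosomes 11, 15 and 16 the shares with a called contact were 71.7, 73.3 and 68%. Many of these genes carry clone, Gm or Rik symbols, and whether they are keratin or keratin-associated genes was not looked at.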
